A study of Rattus norvegicus with 36 samples.

Results

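The hippocampal fields CA1, CA2 and CA3 are successive stretches of the pyramidal cell layer, and 9 genes that mark them were followed here across 36 libraries of rat hippocampus. The genes were taken by symbol from a deposited table of 20603 genes, and all 9 were found. Wfs1, Fibcd1 and Pou3f1 stand for CA1, Amigo2, Rgs14 and Pcp4 for CA2, and Bok, Nectin3 and Cpne4 for CA3. The study sequenced total RNA of frozen hippocampus from female rats in 6 groups of 6 animals. The groups were regular cyclers at 6 months (Reg6m) and at 9 months (Reg9m), irregular cyclers at 9 months (Irreg9m), acyclic animals at 9 months (Acyc9m) and at 16 months (Acyc16m), and animals whose ovaries were removed at 9 months and which were sampled at 10 months (RegOVX10m). The table names its 36 columns only by the tissue and a running number, so no column could be given a cycle status or an age, and the columns were treated as 1 ungrouped set. Every spread and correlation below therefore mixes differences between the 6 groups with differences between animals, and the 2 cannot be told apart.

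CA1 pyramidal cells send the main output of the hippocampus to the subiculum and cortex, CA3 pyramidal cells receive the mossy fibres of the dentate gyrus and excite one another and CA1, and CA2 is a small field between them known for its part in social memory. Each field is drawn sharply by the expression of a few genes, which is why such genes serve as markers in tissue sections. In RNA of a whole hippocampus, the level of a field marker reflects both how much of the field the dissected piece holds and how much of the transcript its cells carry, and fewer cells of a type and less RNA per cell cannot be told apart. Several of these markers are also expressed outside their field, Pcp4 among them.

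RefSeq start site windows (GRCr8) were on hand for 7 of the 9 genes, and not for Pou3f1 and Bok. The correlation of Wfs1 with Rgs14, across fields, held under each alternative tried below. That of Nectin3 with Cpne4, within CA3, did not. The windows of Wfs1, Rgs14, Nectin3 and Cpne4 are shown. Each is the 250 bases before the annotated start, read 5′ to 3′ on the gene's strand, with capitals marking GGGCGG on either strand, the letters of a GC box.
Wfs1 (chr14:78034955-78035204, plus strand): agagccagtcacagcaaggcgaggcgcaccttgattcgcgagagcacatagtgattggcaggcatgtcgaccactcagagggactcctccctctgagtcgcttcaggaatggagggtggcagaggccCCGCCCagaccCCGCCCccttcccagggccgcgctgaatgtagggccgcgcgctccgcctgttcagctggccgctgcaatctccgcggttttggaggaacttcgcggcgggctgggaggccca
Rgs14 (chr17:9268234-9268483, minus strand): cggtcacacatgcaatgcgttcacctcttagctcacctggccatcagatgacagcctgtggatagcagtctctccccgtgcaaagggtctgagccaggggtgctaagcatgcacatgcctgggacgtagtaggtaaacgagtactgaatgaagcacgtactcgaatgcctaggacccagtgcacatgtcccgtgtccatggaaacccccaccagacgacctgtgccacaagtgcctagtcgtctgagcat
Nectin3 (chr11:67826694-67826943, plus strand): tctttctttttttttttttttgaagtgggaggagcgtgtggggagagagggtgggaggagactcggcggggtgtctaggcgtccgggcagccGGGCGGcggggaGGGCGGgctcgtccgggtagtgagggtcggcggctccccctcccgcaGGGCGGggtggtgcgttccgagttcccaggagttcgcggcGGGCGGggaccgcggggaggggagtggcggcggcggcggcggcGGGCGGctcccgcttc
Cpne4 (chr8:114055902-114056151, plus strand): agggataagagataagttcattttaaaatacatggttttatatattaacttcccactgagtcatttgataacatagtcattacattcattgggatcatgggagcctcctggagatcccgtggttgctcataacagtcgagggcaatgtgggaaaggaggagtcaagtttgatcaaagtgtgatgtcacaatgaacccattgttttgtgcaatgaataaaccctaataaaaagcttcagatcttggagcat
Wfs1 held 2 GC boxes and Nectin3 held 5, while Rgs14 and Cpne4 held 0. Such a box was present in 4 of the 7 members' windows and in 30.5% of 33469 windows of the same length in the RefSeq table. Nectin3 had 31 CpG dinucleotides and Cpne4 had 2, against a median of 5 over all windows, so the 2 CA3 genes differed widely in base composition. The letters CANNTG (an E-box, either strand) occurred in 4 of the 7 windows, 6 times in Rgs14, and in 65.5% of all windows. TATAAA occurred in the window of Cpne4 only among the 7, and in 12.9% of all windows. The octamer ATGCAAAT, named here because POU-domain factors such as Pou3f1 bind it, occurred in 0 of the 7 windows and in 1.56% of all windows.

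The 36 columns were alike in scale. Their totals lay between 34455978 and 35985904 normalized counts, and Pearson's r between any 2 columns, over 15893 genes with a mean of at least 10, lay between 0.983 and 0.994. Columns 2, 16, 17 and 30 had the lowest median r with the others, from 0.988 to 0.990, against 0.991 to 0.993 in the other 32, and results that rest on them are given with and without them. Column 17 had the highest level of the myelin list (0.84 above the median on the log2 scale, mean over 7 genes) and the lowest of the interneuron list (-0.78, mean over 6 genes), and column 16 had the highest level of the dentate granule cell list (0.46, mean over 7 genes). The choroid plexus gene Ttr ranged from 4.59 to 1699 normalized counts and Folr1, another choroid plexus gene, from 5.10 to 48.3. The dentate granule cell gene Prox1 was present in all columns, from 3301 to 5722, as was the interneuron gene Gad1, from 4045 to 8636.

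All 9 markers passed the filter on low values and were well detected in every column. Normalized counts grow with transcript length, so levels are compared between columns for 1 gene and not between genes. Wfs1, which encodes an endoplasmic reticulum membrane protein, had a median of 12378 normalized counts, with its lowest value of 6799 in column 2 and its highest of 18360 in column 11. The 7 highest columns, from 15518 upward, lay apart from the other 29, of which the highest held 13595. Fibcd1, a membrane receptor for acetylated ligands, had a median of 6200 and ran from 3717 in column 17 to 7970 in column 3. Pou3f1, a POU-domain transcription factor, had a median of 1803 and ran from 1164 in column 25 to 2453 in column 20. Among the CA1 genes, the highest column thus exceeded the lowest 2.70-fold for Wfs1, 2.14-fold for Fibcd1 and 2.11-fold for Pou3f1.

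The CA2 and CA3 genes spanned narrower ranges. Amigo2, a leucine-rich repeat adhesion molecule, had a median of 628 and ran from 455 in column 17 to 796 in column 10, a 1.75-fold range. Rgs14, a regulator of G-protein signalling that restrains synaptic plasticity in CA2, had a median of 4920, with its lowest value of 3319 in column 16 and its highest of 5710 in column 4. Pcp4, a small calmodulin-binding protein, had a median of 3421 and the narrowest range of the 9, 1.41-fold from 2885 in column 20 to 4064 in column 12. In CA3, Bok, a member of the BCL2 family, had a median of 1928 and ran from 1365 in column 16 to 2431 in column 10. Nectin3, a synaptic adhesion molecule, had a median of 491 and ran from 411 in column 20 to 588 in column 36. Cpne4, a copine that binds phospholipid in the presence of calcium, had a median of 9461 and ran from 7630 in column 2 to 11771 in column 14. The plot of levels by gene shows that the low ends of 6 of the 9 genes were columns 2, 16 or 17.

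**Figure D1:**
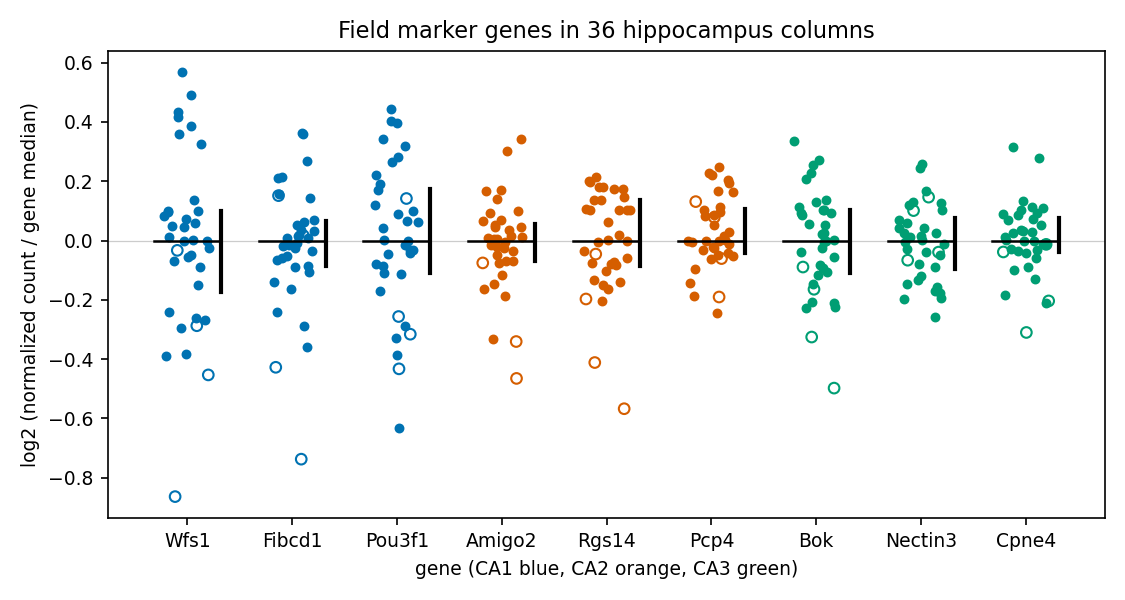
Normalized counts of the 9 field markers in 36 hippocampus columns, as log2 of the value over the gene's median; each point is 1 column, open points are columns 2, 16, 17 and 30, the horizontal line is the median and the vertical bar the interquartile range. The CA1 genes have the widest ranges from lowest to highest column, up to 2.70-fold for Wfs1, while the interquartile range of Fibcd1 (0.15) is below that of Rgs14 (0.22), Bok (0.21) and Nectin3 (0.17), and open points form the low end of Wfs1, Fibcd1, Amigo2, Rgs14, Bok and Cpne4.

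Against the other genes of the table, Pou3f1 and Wfs1 varied more than most and Cpne4 less. The interquartile range on the log2(value + 1) scale was 0.29 for Pou3f1 and 0.27 for Wfs1, larger than in 79.4% and 78.0% of the 15893 genes. It was 0.22 for Rgs14 and 0.21 for Bok, larger than in 71.2% and 69.0% of genes. Nectin3 (0.17), Fibcd1 (0.15) and Pcp4 (0.15) lay near the median gene, whose interquartile range was 0.15. Amigo2 (0.13) and Cpne4 (0.12) varied less than the median gene.

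Of the 36 pairs among the 9 genes, 16 were positively correlated past an adjusted permutation p of 0.05 and none was negatively correlated past it with all columns and Pearson's r. Positive correlations of that size (r of at least 0.42, the lowest among these pairs) were held by 4.9% of all pairs of genes in the table and by 8.34% of pairs of a marker with any other gene, against 44.4% of the pairs among the markers. The calls covered 6 of the 9 pairs within a field (median r = 0.44) and 10 of the 27 pairs between fields (median r = 0.12). Under each alternative tried, with each column left out in turn, 7 pairs kept their call. They were 2 of the 9 pairs within a field and 5 of the 27 between fields, a similar share of each. Those 7 pairs were Wfs1 with Pou3f1, Bok with Cpne4, Rgs14 with each of Wfs1, Pou3f1, Fibcd1 and Bok, and Pou3f1 with Bok. All p-values are two-sided, from 100000 permutations of the columns, and adjusted by Benjamini-Hochberg over the 36 pairs. The map of pairwise correlations shows Rgs14 and Bok linked to the CA1 genes, and Pcp4 and Nectin3 largely apart.

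**Figure D2:**
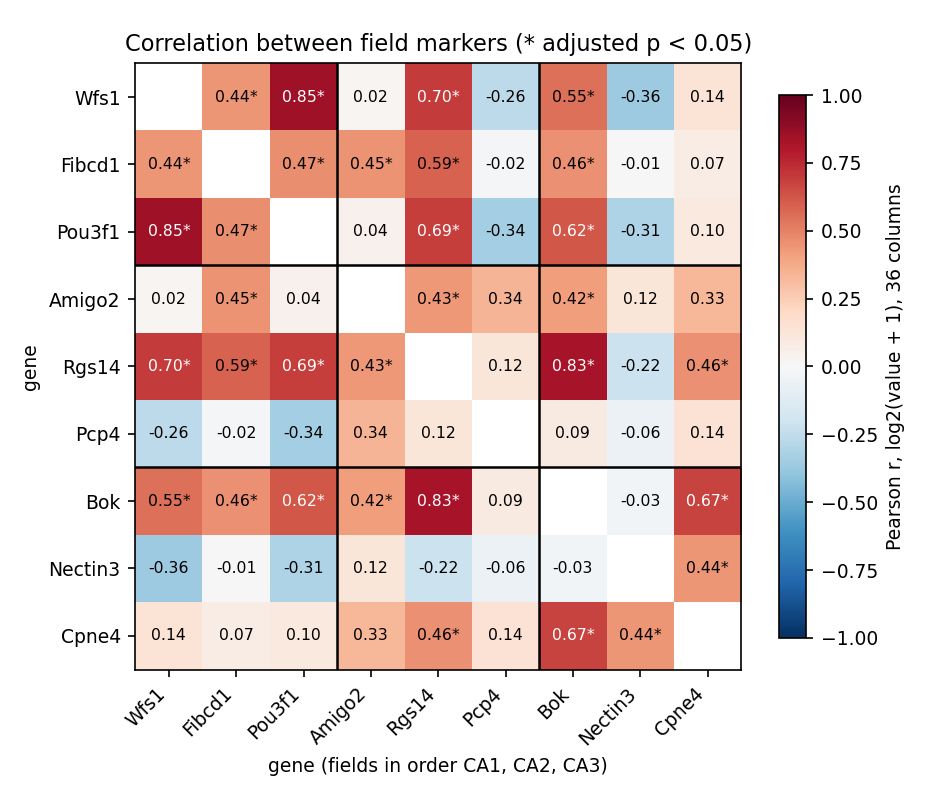
Pearson's r between the 9 markers on log2(value + 1) over 36 columns, with fields separated by black lines and asterisks for adjusted permutation p under 0.05. The highest values are 0.85 for Wfs1 with Pou3f1 and 0.83 for Rgs14 with Bok, while Pcp4 has no asterisk.

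Within CA1, all 3 pairs were correlated, and Wfs1 and Pou3f1 most closely. Their r was 0.85 and their rho 0.85, each with p = 1e-05, the smallest that 100000 permutations can give, and an adjusted p of 7.2e-05 and 0.00012. Leaving out the 2 columns farthest from the median of Wfs1 gave r = 0.87. Since the 7 columns highest in Wfs1 lay apart, r was also taken inside the other 29 (r = 0.71, permutation p = 4e-05, adjusted p = 0.00032 over 8 pairs) and inside the 7 (r = 0.75, as a description). Among the 15892 other genes tested, Pou3f1 ranked 3rd in likeness to Wfs1, and Wfs1 ranked 2nd in likeness to Pou3f1.

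Fibcd1 was tied less closely to its field partners. Its r was 0.44 with Wfs1 (rho = 0.50, adjusted permutation p = 0.0211 and 0.00676) and 0.47 with Pou3f1 (rho = 0.56, adjusted permutation p = 0.0178 and 0.00175). Without the 2 columns farthest from the median of the first gene, these were 0.52 and 0.59. Without column 16 both calls were lost (r = 0.39 and 0.41, adjusted permutation p = 0.0621 and 0.0541), but without columns 2, 16, 17 and 30 together r rose to 0.63 and 0.67. Inside the 29 columns lower in Wfs1, the r of Wfs1 with Fibcd1 was 0.10 (permutation p = 0.586, adjusted p = 0.663), and inside the 7 higher ones it was -0.59, as a description. Fibcd1 lay between 6434 and 7970 in those 7 columns, above its median of 6200 in each. The columns were divided by Wfs1 itself, which narrows its range in both sets, so these values do not show what the correlation over all columns rests on.

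Within CA2, Amigo2 and Rgs14 formed the one pair past the threshold (r = 0.43, rho = 0.32, adjusted permutation p = 0.0251 and 0.122). That call was lost without column 16 (r = 0.30, adjusted permutation p = 0.135) or column 17 (r = 0.39, adjusted permutation p = 0.051), and r was 0.36 without the 2 columns farthest from the median of Amigo2. Pcp4 gave r = 0.34 with Amigo2 (rho = 0.29, adjusted permutation p = 0.0833 and 0.171) and r = 0.12 with Rgs14 (rho = 0.21, adjusted permutation p = 0.65 and 0.33). No pair of CA2 markers therefore kept its call under each alternative.

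Within CA3, Bok and Cpne4 were correlated (r = 0.67, rho = 0.62, permutation p = 1e-05 for r, adjusted p = 7.2e-05 and 0.00045), with r = 0.58 without the 2 columns farthest from the median of Bok. Nectin3 and Cpne4 gave r = 0.44 (rho = 0.45, adjusted permutation p = 0.0211 and 0.0199). The call for Nectin3 with Cpne4 was lost without column 14 (r = 0.35, adjusted permutation p = 0.0834), the column highest in Cpne4, while r was 0.60 without columns 2, 16, 17 and 30. That call was also lost without the 2 columns farthest from the median of Nectin3 (r = 0.40, adjusted permutation p = 0.062), and limma over all genes did not call Nectin3 with Cpne4 as covariate (adjusted p = 0.0761). Bok and Nectin3 gave r = -0.03 (rho = -0.06, adjusted permutation p = 0.943 and 0.764).

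**Figure D3:**
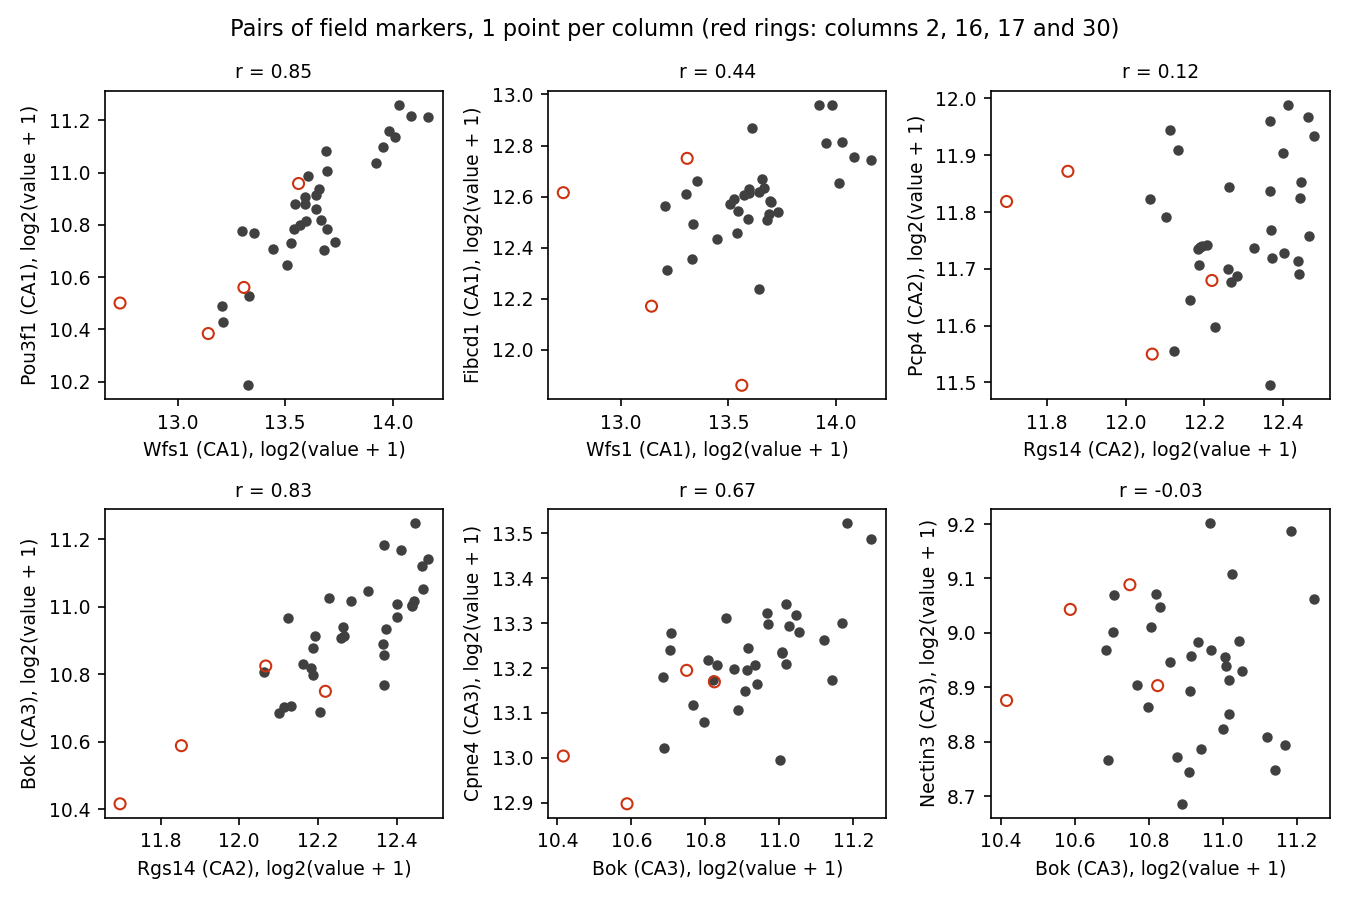
Selected pairs of markers on log2(value + 1), 1 point per column, with red rings for columns 2, 16, 17 and 30. Wfs1 with Pou3f1 (r = 0.85) and Rgs14 with Bok (r = 0.83) follow a line over the whole range, Wfs1 with Fibcd1 (r = 0.44) has its columns highest in Wfs1 above the median of Fibcd1, and Rgs14 with Pcp4 (r = 0.12) and Bok with Nectin3 (r = -0.03) show no slope.

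Between fields, the CA2 gene Rgs14 and the CA3 gene Bok gave the highest r, 0.83 (rho = 0.79, permutation p = 1e-05, adjusted p = 7.2e-05 and 0.00012). Columns 16 and 2 were lowest in both, and without columns 2, 16, 17 and 30 r was 0.73. Rgs14 also rose with the CA1 genes, with r = 0.70 for Wfs1 (rho = 0.64), 0.69 for Pou3f1 (rho = 0.69) and 0.59 for Fibcd1 (rho = 0.60). The adjusted permutation p of r was 7.2e-05, 7.2e-05 and 0.00144. Inside the 29 columns lower in Wfs1, r of Wfs1 was 0.68 with Rgs14 and 0.52 with Bok (permutation p = 0.00015 and 0.00471, adjusted p = 0.0006 and 0.0126), and inside the 7 higher ones 0.13 and 0.02, as a description. Bok gave r = 0.62 with Pou3f1 (rho = 0.63), 0.55 with Wfs1 (rho = 0.49) and 0.46 with Fibcd1 (rho = 0.50), with an adjusted permutation p of 0.00078, 0.00234 and 0.0183. Without columns 2, 16, 17 and 30 the call for Wfs1 with Bok was lost (r = 0.36, adjusted permutation p = 0.125), and without column 16 that for Fibcd1 with Bok (r = 0.36, adjusted permutation p = 0.0735).

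The remaining calls between fields rested on single columns. Fibcd1 with Amigo2 gave r = 0.45 (rho = 0.26, adjusted permutation p = 0.0213 and 0.221) and fell to r = 0.23 without column 17 (adjusted permutation p = 0.28) and 0.37 without column 16 (adjusted permutation p = 0.0735). Amigo2 with Bok gave r = 0.42 (adjusted permutation p = 0.0264) and lost its call without column 10 (r = 0.33, adjusted permutation p = 0.108) or column 16 (r = 0.30, adjusted permutation p = 0.135). Rgs14 with Cpne4 gave r = 0.46 (adjusted permutation p = 0.0183) and lost its call without column 2 (r = 0.34, adjusted permutation p = 0.0856) or column 16 (r = 0.37, adjusted permutation p = 0.0703). The lowest r of all pairs was that of Wfs1 with Nectin3, -0.36 (rho = -0.41, adjusted permutation p = 0.0606 and 0.036), which passed the threshold for rho. Its r also passed with columns at equal totals (r = -0.40, adjusted permutation p = 0.0342), given the choroid plexus, myelin and dentate levels (r = -0.48, adjusted permutation p = 0.00798), and with any 1 of columns 11, 19, 23, 24 and 36 left out (r = -0.45 without column 23, adjusted permutation p = 0.0179).

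Taken as field levels, the mean over the 3 genes of a field of log2(value + 1) centred on each gene's median, the fields were moderately alike. CA2 and CA3 levels gave r = 0.50 (rho = 0.47), CA1 and CA2 levels r = 0.39 (rho = 0.36), and CA1 and CA3 levels r = 0.28 (rho = 0.33), as descriptions over the same 36 columns. Without columns 2, 16, 17 and 30, r was 0.35, 0.15 and 0.0452. Column 16 was lowest in CA1 (-0.44) and in CA3 (-0.26), and column 17 in CA2 (-0.28). Column 11 was highest in CA1 (0.37), column 10 in CA2 (0.21) and column 14 in CA3 (0.28). Each field level depended on its genes, since the r of CA1 with CA2 was -0.02 with Rgs14 left out of CA2, and the r of CA1 with CA3 was -0.10 with Bok left out of CA3.

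The number of genes that moved with a marker differed widely between the markers. limma, with the marker's log2(value + 1) as covariate and Benjamini-Hochberg adjustment over 15892 genes, called 28.5% of genes with Bok and 28% with Rgs14, in either direction. It called 17% with Fibcd1, 10.5% with Pou3f1, 8.73% with Pcp4, 5.53% with Cpne4, 5.29% with Amigo2 and 5% with Wfs1. For Nectin3 it called 0 genes (0%) after adjustment, with 1439 at an unadjusted p under 0.05, and limma was the single tool run. Among the other 8 markers, 6 rose with Rgs14, where 15.1% of all genes rose, and 6 rose with Bok, where 14.7% rose. The counts were 5 of 8 with Fibcd1 (10.5% of genes rose), 4 with Pou3f1 (6.75%), 3 with Wfs1 (3.41%) and 1 with Cpne4 (2.44%). None of the 8 rose with Amigo2 (3.2%) or with Pcp4 (4.81%). None fell with any marker, where genes falling made up 1.59% for Wfs1, 6.54% for Fibcd1, 3.73% for Pou3f1, 2.09% for Amigo2, 12.9% for Rgs14, 3.91% for Pcp4, 13.8% for Bok and 3.1% for Cpne4. Without columns 2, 16, 17 and 30 the genes called rising and falling dropped to 1 and 2 with Amigo2, 348 and 86 with Fibcd1, 287 and 88 with Wfs1 and 118 and 100 with Cpne4, and 228 fell with Pou3f1 (593 with all columns). The histograms of r place the other markers in each of these backgrounds.

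**Figure D4:**
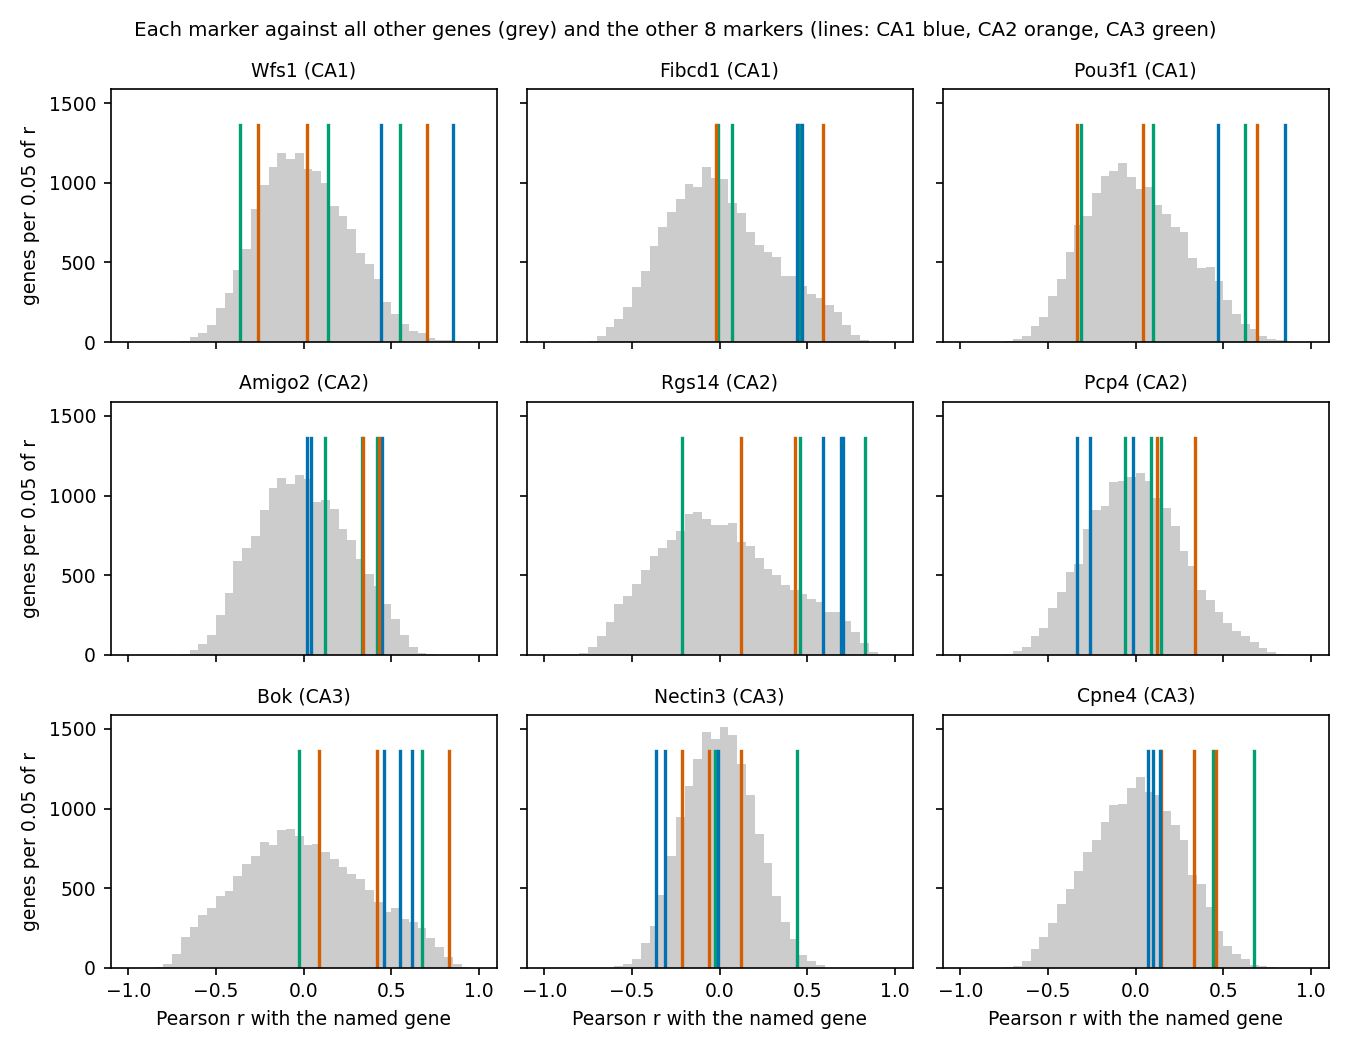
For each marker, the number of genes per 0.05 of Pearson's r (grey, 15892 genes, 36 columns), with lines at the r of the other 8 markers coloured by field. Rgs14 and Bok have the widest grey distributions, and the line of Pou3f1 in the panel of Wfs1, at r = 0.85, lies beyond nearly all genes.

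The genes most like each marker in pattern, taken from the 3 of highest r among the 15892 over 36 columns, were shared across fields by some markers and not shared within a field by others. Wnt2, a secreted Wnt ligand, was closest to Wfs1 (r = 0.95, rho = 0.87, limma adjusted p = 6.39e-16). Wnt2 ran from 227 to 685 normalized counts with a median of 409, a 3.01-fold range, and its r with Wfs1 stayed at 0.93 without columns 2, 16, 17 and 30 and at 0.92 in the 29 columns lower in Wfs1. Tmem44 followed with r = 0.88, ahead of Pou3f1. Pou3f1 was closest to Hunk, a protein kinase (r = 0.87, rho = 0.87), then to Wfs1 and to Wnt2 (r = 0.85). Fibcd1 had other neighbours: Stum (r = 0.86) and Scap, the escort protein of sterol-regulated transcription factors (r = 0.83).

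The CA2 genes shared no close neighbour. Rgs14 was closest to Cotl1, an actin-binding protein (r = 0.91, rho = 0.92), to Hpca, the calcium sensor hippocalcin of pyramidal cells (r = 0.90), and to Hapln4, a link protein of the perineuronal matrix (r = 0.89). Pcp4 was closest to Polr2k, an RNA polymerase subunit (r = 0.84), and to Atp5l, an ATP synthase subunit (r = 0.82). Amigo2 was closest to Aig1 (r = 0.73), Mpp3, a membrane scaffold (r = 0.72), and Tgfb3, a growth factor (r = 0.71). The limma calls of these 3 with Amigo2 (adjusted p = 0.00329, 0.00249 and 0.00249) were lost without columns 2, 16, 17 and 30 (adjusted p = 0.06, 0.191 and 0.125).

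In CA3, Bok shared 2 of its 3 nearest genes with Rgs14. It was closest to Hpca (r = 0.95, rho = 0.93, limma adjusted p = 7.23e-15), which ran from 44180 to 81535 normalized counts, then to Tprg1l, a presynaptic protein (r = 0.93), and to Hapln4 (r = 0.91). Cpne4 was closest to Cst6, a cystatin (r = 0.90), to Grik4, the kainate receptor subunit known for its CA3 expression (r = 0.84), and to Rerg, a Ras-like GTPase (r = 0.81). Nectin3 was closest to Dnajc6, the clathrin-uncoating protein auxilin (r = 0.73), Pcsk5, a proprotein convertase (r = 0.67), and Neto1, a kainate receptor auxiliary subunit (r = 0.64). These 3 missed the threshold by limma (adjusted p = 0.0531, 0.0531 and 0.0604). With the filter at a mean of 100, Dnajc6 and Pcsk5 passed (adjusted p = 0.0414), and without columns 2, 16, 17 and 30, Dnajc6 and Neto1 (adjusted p = 0.0384).

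Other genes known for 1 field moved partly with that field's markers and partly with others. Of 4 further CA1 genes, 2 passed the filter. Mpped1 rose with Wfs1 and Pou3f1 by limma, with r = 0.76 and 0.78 (adjusted p = 2.07e-05 and 6.4e-06). Mpped1 also rose with Fibcd1 (r = 0.71), Rgs14 (r = 0.64) and Bok (r = 0.44). Of 6 further CA2 genes, 5 passed the filter, and 3 of these rose with a CA2 marker, 2 with Rgs14 (15.1% of all genes rose), 1 with Amigo2 (3.2%) and 1 with Pcp4 (4.81%). Necab2, a calcium-binding protein, rose with Rgs14 (r = 0.81) but also with Bok (r = 0.78) and Fibcd1 (r = 0.74). Cacng5, an AMPA receptor auxiliary subunit, rose with Rgs14 (r = 0.68), Bok and Amigo2 (r = 0.51 for both). Without columns 2, 16, 17 and 30, limma called 1 gene in all rising with Amigo2, against 508 with all columns. Ntf3, the neurotrophin NT-3, rose with Pcp4 (r = 0.75, limma adjusted p = 6.61e-05) but gave r = 0.05 with Amigo2 and -0.06 with Rgs14. Of 5 further CA3 genes, 3 passed the filter and Grik4 alone was called. It rose with Cpne4 (2.44% of all genes rose) and with Bok (r = 0.55, 14.7% rose). Low expression removed Spink8, Avpr1b and Iyd. The mean level of the other genes of a field, over those that passed the filter, gave r = 0.58 with the CA1 level, 0.50 with the CA2 level and 0.27 with the CA3 level. Without columns 2, 16, 17 and 30 these were 0.69, 0.32 and 0.24. The filter was applied to these lists after the values of all listed genes had been seen, which gave r = 0.07, 0.41 and -0.25, so the agreement for CA1 and the sign for CA3 depend on leaving out the low genes.

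Of 4 general markers of excitatory neurons, 3 rose with Rgs14 and with Bok (15.1% and 14.7% of all genes rose), 2 with Wfs1 (3.41%), Fibcd1 (10.5%) and Cpne4 (2.44%), 1 with Pou3f1 (6.75%) and Amigo2 (3.2%), and 0 with Pcp4 (4.81%) and Nectin3 (0%). Slc17a7, the vesicular glutamate transporter, rose with Bok (r = 0.82), Rgs14 (r = 0.77), Fibcd1 (r = 0.69), Cpne4 (r = 0.57) and Amigo2 (r = 0.56) by limma. Neurod6, a pyramidal cell transcription factor, rose with Cpne4 (r = 0.75), Bok (r = 0.70), Rgs14 (r = 0.65) and Wfs1 (r = 0.47). Neurod2, a related factor, rose with Bok (r = 0.67), Rgs14 (r = 0.65), Pou3f1 (r = 0.61), Wfs1 (r = 0.55) and Fibcd1 (r = 0.48). Camk2a, the calcium-dependent kinase of excitatory synapses, rose with none of the 9 and fell with Pcp4 (r = -0.48, adjusted p = 0.0342). The mean level of these 4 genes gave r = 0.73 with the CA1 level, 0.55 with the CA2 level and 0.72 with the CA3 level, as descriptions. These values were 0.63, 0.38 and 0.635 without the 4 columns lowest in median r with the others. The mean level of the 4 genes ran from -0.17 in column 16 to 0.13 in column 11.

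Markers of neighbouring tissue and of other cells also moved with some of the markers. Given the choroid plexus, myelin and dentate levels, all 16 pairs of markers kept their call, and the part of the other lists in the correlations was not tested. The thalamus list (4 genes) and the neocortex list (5 genes) gave r = -0.52 and -0.51 with the CA3 level, and -0.50 and -0.47 without columns 2, 16, 17 and 30. The striatum list (6 genes) gave r = -0.42 with the CA3 level, and -0.54 without those columns. Of its genes, Rgs9 and Drd1 fell with Bok (r = -0.60 and -0.59, 13.8% of all genes fell), while Ppp1r1b rose (r = 0.59, 14.7% rose). The 4 thalamus genes were split, since Slc17a6, the glutamate transporter of thalamic neurons, and Ntng1 fell with Cpne4 (r = -0.63 and -0.47, where 3.1% of all genes fell), while Tcf7l2 and Lef1 gave r = 0.27 and 0.21. The endothelium list (4 genes) gave r = -0.51 with the CA2 level and -0.30 without the 4 columns, and the astrocyte list (6 genes) gave -0.54 and -0.34. Slco1a4, Tek and Flt1 fell with Fibcd1 and with Amigo2, 3 of the 4 endothelial genes that passed the filter in each case, where 6.54% and 2.09% of all genes fell. The endothelium list gave r = -0.61 with Fibcd1 and -0.55 with Amigo2, and -0.31 and -0.30 without columns 2, 16, 17 and 30. Of 6 interneuron genes, 4 rose with Fibcd1 and 3 with Amigo2 (10.5% and 3.2% of all genes), Slc32a1 with r = 0.72 and 0.49. The interneuron list gave r = 0.62 with Fibcd1 and 0.46 with Amigo2, and 0.28 and 0.13 without those 4 columns. Column 17, lowest in Fibcd1 and Amigo2, was also lowest in the interneuron list and highest in the endothelium list (0.52). The dentate granule cell genes Prox1, Glis3 and Stxbp6 fell with Bok and with Rgs14, 3 of the 7 that passed the filter, where 13.8% and 12.9% of all genes fell. Prox1 gave r = -0.49 and -0.39, and C1ql2, another dentate gene, gave 0.25 and 0.31. The dentate list gave r = -0.39 with Bok and -0.30 with Rgs14, and -0.22 and -0.08 without columns 2, 16, 17 and 30. With Pcp4, 1 of the 7 dentate genes rose, Calb1 (r = 0.48, limma adjusted p = 0.0289), where 4.81% of all genes rose. The choroid plexus list gave r between 0.03 and 0.11 with the 3 field levels, and the myelin list between -0.01 and 0.21. With single markers, r ran from -0.29 (Fibcd1) to 0.26 (Bok) for choroid plexus and from -0.29 (Fibcd1) to 0.34 (Bok) for myelin. Without columns 2, 16, 17 and 30 these were -0.32 and 0.16, and -0.09 and 0.22. By limma, 1 of 7 myelin genes rose with Bok, Mbp (r = 0.43, adjusted p = 0.0218), where 14.7% of all genes rose. Folr1, 1 of 5 choroid plexus genes, rose with Amigo2 (r = 0.48, adjusted p = 0.0432), where 3.2% rose (1 gene without those columns).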

How the data were processed

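Total RNA of frozen hippocampus was sequenced in 36 samples, per the labels. The authors deposited normalized counts per gene symbol, a signal scale that is never negative. Tools named in the submitters' processing notes are kallisto 0.43 and DESeq2, with no role stated. Which transcripts were quantified was not stated. The median ratio of each column to the geometric mean over genes was 1.0027 in all columns, so the columns had already been brought to a common scale. Low values were not whole multiples of 1 step, so the depth of each library is unknown and no counting interval is given. Values were analysed as log2(value + 1), in genes with a mean of at least 10. Columns carry no group, so no group was compared, and n is 36 columns throughout.

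Pearson's r and Spearman's rho among the 9 genes were tested by 100000 permutations. Fits across all genes used limma 3.58.1 (R 4.3.3) with trend, the marker as covariate and Benjamini-Hochberg adjustment. Other steps used Python 3.11.15 with numpy 2.4.6 and pandas 2.3.3. Both tests were tested on simulated data. List levels use genes that passed the filter, a choice made after the levels over all listed genes had been seen. Named genes are the 9 markers, the 3 genes of highest r with each, and genes of marker lists. A few genes that this rule names are not reported here. The symbols Man1a, Socs2, Otx2 and Pecam1 of those lists were not analysed here. The markers and lists were chosen with earlier results of these data known. Columns 2, 16, 17 and 30 were singled out after seeing the data, as were the 7 columns highest in Wfs1. Alternatives were other pseudocounts, filters and scalings, partial correlations and left-out columns.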

Additional observations from a re-analysis of the deposited data

How the results depend on the processing

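The depth of the libraries is unknown, so what it limits could not be measured, and the mixture of 6 groups limits every correlation. No paired analysis was possible because the columns carry no group and no replicate number. Rescaling by median ratio could not change a call, since that ratio was 1.0027 in all columns. A pseudocount of 0.1 or 10 changed no call among the 36 pairs, but it is small against the markers, whose lowest value was 411. The count of 16 called pairs was 13 by rho, 17 with columns at equal totals, 16 given the first principal component (8.32% of variance), 19 given the choroid plexus, myelin and dentate levels, and 11 without columns 2, 16, 17 and 30. It was 10 without the 2 columns farthest from the median of the first gene, and from 9 (without column 16) to 19 (without column 23) with each column left out. Of these counts, 1 call by rho, 1 at equal totals (both Wfs1 with Nectin3), 2 given the tissue levels (Wfs1 and Pou3f1 with Nectin3, r = -0.48 and -0.40, adjusted permutation p = 0.00798 and 0.034) and 2 without column 23 (the same pairs) were negative. Amigo2 with Pcp4 was gained given the tissue levels (r = 0.46, adjusted permutation p = 0.0128). The cause was not tested.

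Pairs that were not called and changed sign were also not called after the change. Given the first principal component, r was -0.12 for Wfs1 with Cpne4, -0.15 for Pou3f1 with Cpne4 and 0.14 for Bok with Nectin3. Given the tissue levels, it was -0.0512 for Wfs1 with Amigo2, -0.014 for Pou3f1 with Amigo2, -0.0049 for Pou3f1 with Cpne4 and -0.0436 for Amigo2 with Nectin3. Without the 4 columns, it was -0.17 for Wfs1 with Amigo2, -0.26 for Wfs1 with Cpne4, -0.0902 for Fibcd1 with Cpne4, -0.063 for Pou3f1 with Amigo2, -0.13 for Pou3f1 with Cpne4 and 0.0202 for Bok with Nectin3. Without the 2 farthest columns, it was -0.12 for Wfs1 with Cpne4 and -0.0885 for Fibcd1 with Cpne4. With a single column left out, r ran from -0.0786 to 0.12 for Wfs1 with Amigo2, -0.10 to 0.22 for Wfs1 with Cpne4, -0.25 to 0.0603 for Fibcd1 with Pcp4, -0.0668 to 0.0611 for Fibcd1 with Nectin3. It ran from -0.0249 to 0.18 for Fibcd1 with Cpne4, -0.0722 to 0.12 for Pou3f1 with Amigo2, -0.00042 to 0.18 for Pou3f1 with Cpne4, -0.22 to 0.0514 for Pcp4 with Nectin3, -0.13 to 0.0345 for Bok with Nectin3. By rho, Fibcd1 with Nectin3 gave 0.10.

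The r of the CA1 with the CA2 level was -0.0169 without Rgs14, 0.58 without Pcp4 and 0.15 without the 4 columns. That of CA1 with CA3 was -0.10 without Bok, 0.46 without Nectin3 and 0.0452 without the 4 columns. That of CA2 with CA3 was 0.32 without Rgs14, 0.21 without Bok and 0.35 without the 4 columns. By limma, the genes rising and falling without the 4 columns were 287 and 88 with Wfs1 (542 and 253 with all columns), 348 and 86 with Fibcd1 (1667 and 1040), 1 and 2 with Amigo2 (508 and 332), and 118 and 100 with Cpne4 (387 and 492). With Pou3f1, 228 fell (593 with all columns). With Nectin3, 2 rose without the 4 columns and 2 with the filter at a mean of 100, against 0.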

Other observations

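Genes that ran opposite to the markers were looked at after their values were seen. Necab1, a calcium-binding protein, had the lowest r of all genes with Wfs1 (-0.79, limma adjusted p = 1.71e-06) and with Pou3f1 (-0.80, limma adjusted p = 1.18e-06) over the 36 columns. It thus fell where these 2 CA1 genes rose. Lrrk2, a large kinase, had the lowest r with 2 of the 3 CA3 genes, Bok (-0.88, limma adjusted p = 1.26e-09) and Cpne4 (-0.75, limma adjusted p = 8.64e-05). For Nectin3 the lowest was Pelp1 (r = -0.63, limma adjusted p = 0.25). For Rgs14 the lowest was Ogt, the enzyme that adds N-acetylglucosamine to proteins (r = -0.82, limma adjusted p = 2.61e-07). Amigo2 ran opposite to Limch1 (r = -0.74), and Mef2c, a neuronal transcription factor, was among its 3 lowest (r = -0.70, limma adjusted p = 0.00249). Pcp4 ran opposite to Ppp1r16b (r = -0.76) and Dock9 (r = -0.76).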
